A study of Mus musculus with 20 samples.

Results

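The genes described here were the mouse replication-dependent histone genes, taken as the protein-coding genes of GENCODE M21 (mm10) whose symbols begin with Hist1h, Hist2h, Hist3h or Hist4h. There were 67 of them among 21951 protein-coding genes on chromosomes 1 to 19, X, Y and M. They comprised 6 genes for the linker histone H1 and, for the core histones, 18 for H2A, 18 for H2B, 12 for H3 and 13 for H4. The large Hist1 cluster on chromosome 13 held 54 of them, the Hist2 cluster on chromosome 3 held 10, Hist3 on chromosome 11 held 2, and Hist4 held 1.

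N6-methyladenosine (m6A), an internal methyl mark on RNA, was profiled by antibody pull-down of chromatin-associated RNA from C57BL/6 mouse embryonic stem cells grown with serum, LIF, CHIR99021 and PD0325901. The groups were Mettl3 KO1, Mettl3 KO2 and their Mettl3 control, and Ythdc1 cKO and its Ythdc1 control, with 2 immunoprecipitation libraries each. METTL3 is the catalytic subunit of the main mRNA m6A methyltransferase, and YTHDC1 is a nuclear reader of the mark. The labels do not say whether KO1 and KO2 are each 1 clone, how the conditional knockout was induced, or whether a group's 2 libraries are separate cultures, so a p-value measures only the spread between libraries, which may be technical. The inputs were not analysed here.

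Replication-dependent histone genes are transcribed in S phase to supply the histones that package newly copied DNA, and pluripotent stem cells, which divide fast, make much of this RNA. Most have no intron. Their mRNAs are not polyadenylated and end in a conserved stem-loop, which is bound by the stem-loop binding protein SLBP and cut by a processing complex that contains the U7 small nuclear RNA. Of the 67 genes, 62 had 1 exon in every annotated transcript. An exact stem-loop of 6 paired bases and 4 loop bases lay after the stop codon in 45, of 52 whose annotation reaches at least 30 bases past it. In Hist1h1c, on chromosome 13, it read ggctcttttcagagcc, shown because it is the element that marks the class.

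Of the 67 histone genes, 54 (80.6%) had a same-strand m6A peak summit in at least 1 of the 10 libraries, against 55.5% of all protein-coding genes. Only 14 (20.9%) had one in all 10 libraries, against 34.0% of all protein-coding genes. Among the other protein-coding genes with 1 exon, 313 of 1269 (24.7%) had a peak in any library. The 14 were Hist1h1c, Hist1h1d and Hist1h1e for H1, Hist1h2ab, Hist1h2af and Hist1h2ak for H2A, Hist1h2bb, Hist1h2bc, Hist1h2bg, Hist1h2bn, Hist1h2bq and Hist1h2br for H2B, and Hist2h3c1 and Hist2h3c2 for H3. No H4 gene was among them. A further 4 genes had a peak in 1 library, and 13 had none, of which 8 were H4 genes. A gene without a peak here is one for which nothing passed the authors' threshold, which does not show unmethylated RNA, and in bulk cells a smaller share of cells in S phase cannot be told apart from less RNA per cell.

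The summits lay in the coding sequence. Of 353 peaks on these genes, 344 had their summit in a coding exon, 5 in an untranslated region and 4 in an intron, of Hist1h2bc or Hist1h2be. The annotation fixes part of this, since a peak counted only inside the gene body. Some bodies are nearly all coding, as in Hist1h2af, with 390 coding bases of 399. The coding share of all annotated bases was not computed. The place of the summit differed between histone types, and within a type it was often the same stretch in many genes and libraries. In H2A genes 104 summits had their median at coding base 257, counted from the first base of the start codon, with quartiles at 248.75 and 274. H3 summits had a median at coding base 297 and H4 summits at 202. In the longer H1 genes the median was coding base 411, in the part that encodes the lysine-rich tail, and in H2B genes it was 177, with quartiles at 94 and 260. Windows of 81 bases around the median summit of 8 genes follow, read 5′ to 3′ on the sense strand from GENCODE M21 transcripts (mm10), with GGAC, the core of the m6A consensus, in capitals. They were chosen to show H3 summits with and without the core. A pair of H2B genes with it stands beside one without it at a like position. The leading H2A gene is also shown, and Hist1h1e, the only H1 gene with the core near its summits.
Hist2h3c2, coding bases 279 to 359, chr3:96238583-96238663, minus strand: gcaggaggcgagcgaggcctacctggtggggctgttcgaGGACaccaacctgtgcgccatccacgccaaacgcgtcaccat
Hist1h3g, coding bases 270 to 350, chr13:23535715-23535795, plus strand: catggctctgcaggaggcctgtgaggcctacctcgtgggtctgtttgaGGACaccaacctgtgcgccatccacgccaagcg
Hist1h3d, coding bases 75 to 155, chr13:23575876-23575956, plus strand: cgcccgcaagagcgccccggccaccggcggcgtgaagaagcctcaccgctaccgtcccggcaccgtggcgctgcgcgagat
Hist1h2bg, coding bases 52 to 132, chr13:23571484-23571564, plus strand: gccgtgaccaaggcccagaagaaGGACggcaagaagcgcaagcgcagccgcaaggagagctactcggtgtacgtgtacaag
Hist1h2bn, coding bases 37 to 117, chr13:21754159-21754239, plus strand: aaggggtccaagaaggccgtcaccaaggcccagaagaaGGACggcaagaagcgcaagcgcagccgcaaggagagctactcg
Hist2h2bb, coding bases 41 to 121, chr3:96269792-96269872, plus strand: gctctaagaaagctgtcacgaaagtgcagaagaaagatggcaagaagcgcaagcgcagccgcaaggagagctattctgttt
Hist1h2af, coding bases 217 to 297, chr13:23534127-23534207, plus strand: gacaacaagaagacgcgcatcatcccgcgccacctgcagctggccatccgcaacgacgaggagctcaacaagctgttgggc
Hist1h1e, coding bases 369 to 449, chr13:23622049-23622129, minus strand: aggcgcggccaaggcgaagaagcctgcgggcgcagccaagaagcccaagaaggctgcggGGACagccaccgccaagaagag

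Among the H3 windows, that of Hist2h3c2 was identical to the one around the summit of its neighbour Hist2h3c1, and GGAC lay within 50 nt of the summit in all 10 libraries in both genes. Hist1h3d, another H3 gene, had its median summit at coding base 115, where no GGAC was near. Its summits had the core within 50 nt in 4 of 9 libraries. Those were the 4 libraries of the Ythdc1 experiment, with summits at coding bases 273 to 297. In the Mettl3 experiment the Hist1h3d summits lay at coding bases 96 to 115, without the core, so the printed window shows that experiment's place. The H2B genes Hist1h2bg and Hist1h2bn held GGAC near the start of the coding sequence, within 50 nt of the summit in 10 of 10 libraries each. Hist2h2bb, an H2B gene of the Hist2 cluster, had its median summit at coding base 81 and a peak in 9 libraries, and its window held no GGAC. The H2A window of Hist1h2af held none either, and the H1 window of Hist1h1e held 1.

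**Figure D1:**
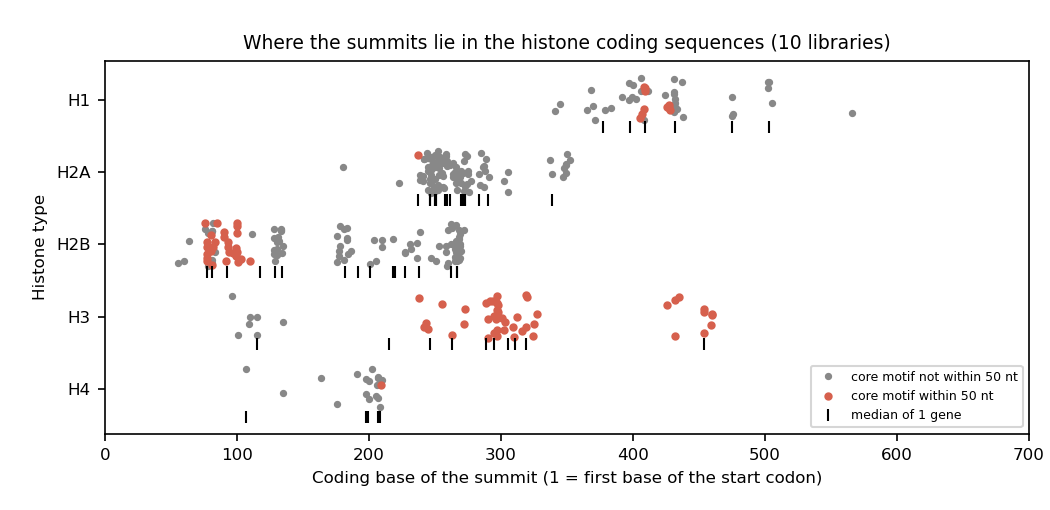
Position of each coding summit of the 10 libraries, in coding bases from the start codon (horizontal axis), by histone type (rows; points are spread vertically within a row only to separate them). Red points have the 4-base core GGAC within 50 nt and grey points do not; black ticks mark the median of 1 gene. H2A summits gather around coding base 257 with 1 red point, and most H3 summits, around coding base 297, are red.

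Over all types, 86 of 344 coding summits (25%) had GGAC within 50 nt on the sense strand, and 24.8% of all windows of that length in the histone coding sequences had it. Of the coding summits of other genes, 48816 of 98190 (49.7%) had it. The wider consensus DRACH (A, G or T, then A or G, then AC, then A, C or T; it overlaps GGAC wherever the next base is not G) was near 58.4% of histone coding summits, 64.0% of all histone windows and 91.7% of other coding summits. GGACT, the longer form of the core, was near 2.33% of histone coding summits, 4.49% of all histone windows and 16.3% of other coding summits. No window of an H1, H2A or H2B coding sequence had it. The histone share for GGAC lay between 16.2% and 32.6% in the single libraries, and that of other genes between 48.3% and 51.5%. A match is a description of the letters in a window and not a mapped site.

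By type the shares were unequal. H3 summits had GGAC within 50 nt in 86.8% of cases, against 53.7% of all H3 windows. For H1 the shares were 21.3% of summits and 12.6% of windows, and for H2B 23.1% and 18.5%. All H1 summits with GGAC were those of Hist1h1e, where all 10 had it, and no other H1 gene had any. H2A had GGAC near 1 of 104 summits (0.962%), against 10.3% of its windows, and H4 near 5.26% of 19 summits, against 36.3% of its windows. DRACH was near 91.5% of H1, 86.8% of H3 and 94.7% of H4 summits, against 84.6%, 73.8% and 80.3% of their windows. It was near 49.0% of H2A and 35.5% of H2B summits, against 52.4% and 47.5% of their windows. Genes of a type share sequence, so these summits are not independent of one another, and no test was made.

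**Figure D2:**
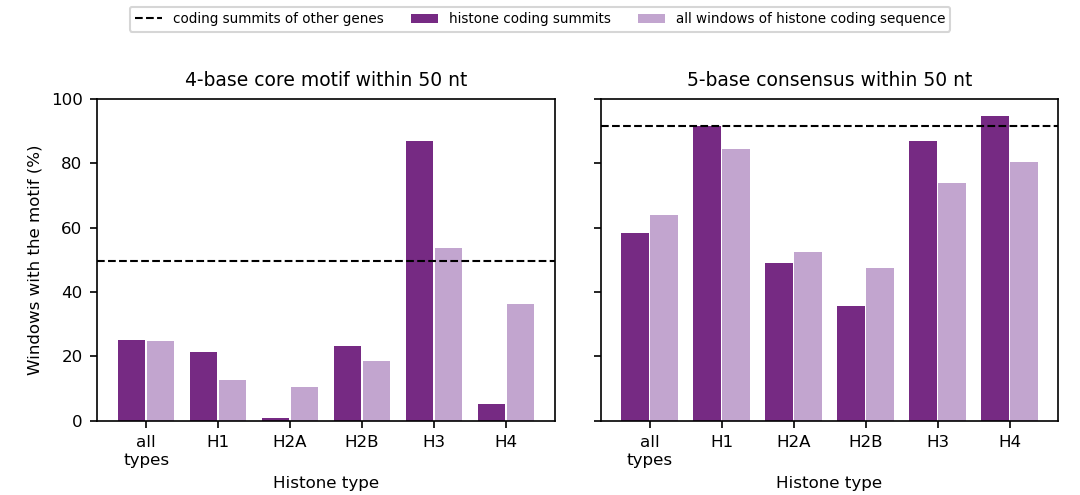
Share of windows (vertical axis, %) with the 4-base core GGAC (left) or the 5-base consensus DRACH (right) within 50 nt, for all histone genes and by type. Dark bars are coding summits and light bars all windows of the histone coding sequences; the dashed line is the share at coding summits of other genes (49.7% and 91.7%). The dark H3 bar stands at 86.8% and the dark H2A bar at 0.962% for the core.

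The near-identity of the genes limits which copy a peak belongs to. Over words of 50 bases, a median of 54.1% of a histone transcript occurred in another annotated gene, and 34 of the 67 genes shared at least 50% of their words. The median share was 1.13% for H1, 73.0% for H2A, 47.5% for H2B, 62.0% for H3 and 39.5% for H4. The sources used here do not say how reads that match several copies were placed, so presence in 1 of several like copies is uncertain, least so for H1. Hist2h2be, which shared no such word with any gene, had a peak in 8 libraries.

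The peaks were low and sat on a high background. The authors' fold enrichment, the pile-up of reads at the summit over the local background as MACS2 reports it, had a median of 2.49 over the 353 peaks and ranged between 1.27 and 10.5. Of these peaks, 323 (91.5%) were below the median fold of their own list and 205 (58.1%) below its 10th percentile. The median histone fold was 2.38 and 2.45 in Mettl3 KO1 and 1.79 and 1.81 in KO2, against 2.38 and 2.38 in the Mettl3 control. It was 2.75 and 3.08 in Ythdc1 cKO and 2.63 and 2.63 in the Ythdc1 control, while the median over a whole list lay between 4.39 and 4.77. The KO2 libraries had the lowest histone medians of the 10.

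Solving fold and p-value for each peak gave the reads behind it. The median background at histone summits was 95.3 and 90.8 reads in KO1 and 210 and 189 in KO2, against 101.1 and 99.9 in the Mettl3 control. It was 85.4 and 70.9 reads in cKO and 102 and 90.3 in the Ythdc1 control. Over all peaks of a list it was 16.3 to 20.03 reads, and the histone median was above the 90th percentile of its list (51.2 to 70.4 reads) in each of the 10 libraries. The median pile-up at histone summits was 234.5 to 404.5 reads, against 105 to 120 reads over all peaks. By type the median background was 255 reads for H1, 130 for H2A, 76.3 for H2B, 96.1 for H3 and 83.8 for H4. Low histone folds thus went with a background several times that of the other peaks and a pile-up that was also higher.

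**Figure D3:**
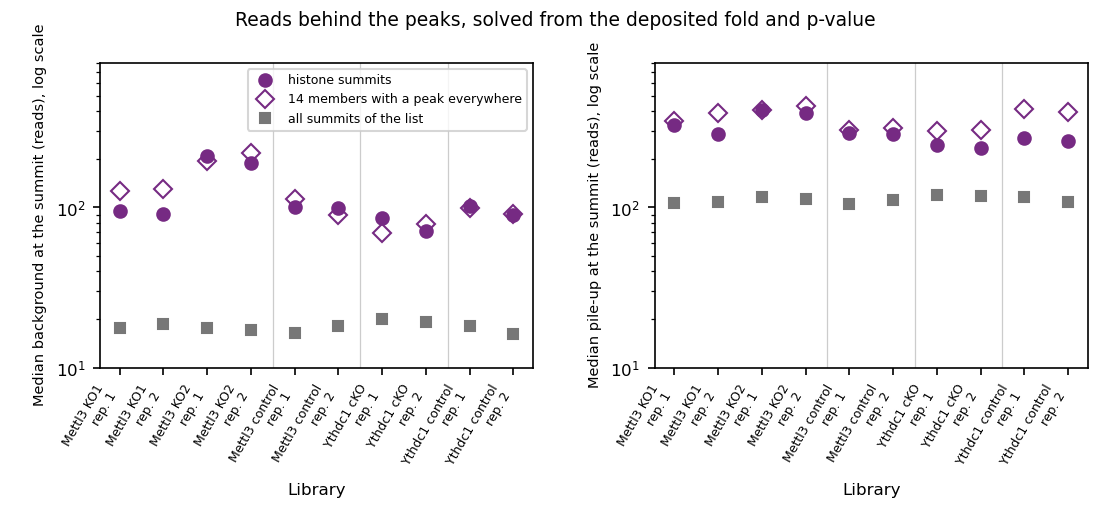
Median background (left) and median pile-up (right) at the summit in each library, in reads on a log scale, for all histone summits (filled circles), the 14 histone genes with a peak in every library (open diamonds) and all peaks of the list (grey squares). Histone medians lie above the list medians in both panels and all 10 libraries, and the background in KO2 is the highest.

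The first comparison asks what loss of METTL3 does to these peaks. Peaks on the Mettl3 gene itself were absent from both KO1 libraries, while its strongest summit had a fold of 3.63 and 2.65 in KO2, against 6.15 and 5.06 in the Mettl3 control. The gene also had no peak in Ythdc1 cKO replicate 2. A peak does not measure the gene's RNA, so the absence from KO1 is a weak check of the labels. On average more histone genes had a peak in the knockouts, with ranges that overlapped. A peak was present on 31 and 37 histone genes in KO1 and on 29 and 37 in KO2, against 22 and 30 in the Mettl3 control. The mean was 33.5 ± 4.12 in the knockouts (SD, n = 4) and 26.0 ± 5.66 in the control (SD, n = 2), a difference of 7.5 genes. Over all protein-coding genes the counts were 9373 and 9341 in KO1 and 10141 and 10009 in KO2, against 9877 and 9953 in the control. For the histone genes the exact two-sided permutation test over 15 splits gave p = 0.2, where the smallest p this design allows is 0.0667. KO1 alone was 8 genes above the control (exact permutation p = 0.333, the smallest possible with 2 against 2) and KO2 alone 7 genes (exact permutation p = 0.667). Among the 33 histone genes that share less than 50% of their 50-base words with another gene the difference was 1.25 genes, with 11 and 12 in KO1 and 12 and 16 in KO2, against 10 and 13 in the control (exact permutation p = 0.667).

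Gene by gene, 21 histone genes had a peak in both Mettl3 controls. None of them was lost, that is without a peak in all 4 knockout libraries, where 2.74% of all protein-coding genes with a peak in both controls were. Of the 21, 14 (66.7%) had a peak in every knockout library as well, against 84.8% of all such protein-coding genes. The other 7 had a peak in some knockout libraries: Hist1h1t, Hist1h2be, Hist1h3d, Hist2h2aa1, Hist2h2aa2, Hist2h2be and Hist2h3b. Of 36 histone genes with no peak in either control, 1, Hist1h4b, was gained, with a peak in all 4 knockout libraries, against 1.14% of such protein-coding genes. That count was 7 without Mettl3 control replicate 2, 2 without control replicate 1 and 2 without KO2 replicate 2. Leaving out a library loosens the rule, and the share of all protein-coding genes gained in that way was not computed.

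**Figure D4:**
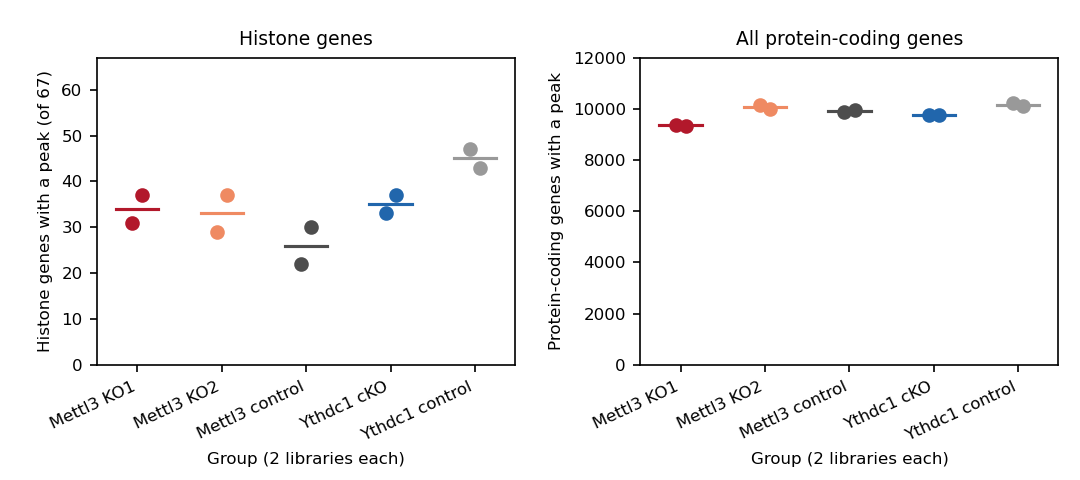
Number of genes with a peak in each library (points) and the mean of each group (bars), for the 67 histone genes (left) and all protein-coding genes (right). The 4 Mettl3 knockout libraries lie between 29 and 37 histone genes and the Mettl3 controls at 22 and 30, while Ythdc1 cKO lies at 33 and 37 and the Ythdc1 controls at 47 and 43.

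Ranked within its own list, the median histone summit stood at percentile 6.74 and 7.38 of fold in KO1 and 1.11 and 1.15 in KO2, against 4.41 and 4.63 in the Mettl3 control. KO1 lay above the control and KO2 below it, with no overlap between the 3 groups, but each median is over the genes with a peak in that library. Over the 14 genes with a peak everywhere it was 11.6 and 12.1 in KO1 and 5.88 and 2.68 in KO2, against 4.41 and 8.60 in the control, so KO1 was above both controls and KO2 overlapped them. Over both knockouts the difference was −0.42 percentile points (exact permutation p = 0.867), and it was positive, 0.569 or 0.558, without 1 or the other KO2 library. For KO1 alone it was 2.54 and for KO2 alone −3.39 (exact permutation p = 0.333 each, the smallest possible). The lists differ in length, 40980 to 46761 peaks, so a percentile places a peak in its list and shows no change by itself.

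The 14 genes with a peak everywhere allow the same genes to be compared. Tests of pile-up, background and fold over these genes, here and for Ythdc1, were not among the planned ones. The median pile-up of the 14 genes was 347.5 and 388 reads in KO1 and 404.5 and 432 in KO2, against 303.5 and 313 in the Mettl3 control. All 4 knockout values were above both controls, a difference of 84.9 reads (exact permutation p = 0.0667, the smallest possible). Their median background was 126 and 131 reads in KO1 and 196 and 220 in KO2, against 114 and 89.7 in the control, a difference of 66.6 reads (exact permutation p = 0.133). Pile-up and background were thus both higher in the knockouts, and the median fold of these genes differed by −0.05 (exact permutation p = 1). That value pools a difference of 0.20 in KO1 (2.70 and 2.74) and of −0.29 in KO2 (2.39 and 2.07), against folds of 2.38 and 2.66 in the control. With coding summits only, a choice made after seeing the data, which changes Hist1h2bc in KO2 replicate 1, the pile-up difference was 94.4 reads and the background difference 73.9 reads (exact permutation p = 0.133 each), and the fold difference in KO2 was −0.45. In the 6 of them that share less than 50% of their words, pile-up differed by 108 reads and the knockout and control ranges overlapped (exact permutation p = 0.2). These are read depths with no scaling between libraries, and the sources used here give no total of reads per library.

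The second comparison asks what loss of YTHDC1 does. The Ythdc1 gene itself had peaks in all libraries, the strongest at 8.60-fold and 9.03-fold in cKO and 7.07-fold and 7.48-fold in the Ythdc1 control, so the peak lists give no check of that label. In cKO 33 and 37 histone genes had a peak, against 47 and 43 in the Ythdc1 control. Both cKO libraries were below both controls, with means of 35 ± 2.83 and 45 ± 2.83 genes (SD, n = 2 each). The difference was −10 genes (exact permutation p = 0.333, the smallest possible). Among the 33 genes that share fewer words it was −4.5 genes, with 14 and 15 in cKO and 19 and 19 in the control. Over all protein-coding genes cKO was lower too, at 9748 and 9761 genes with a peak against 10220 and 10115. Among peaks of at least 3-fold the histone difference turned to 2.5 genes more in cKO (15 and 21 genes, against 15 and 16 in the control), and in the Mettl3 comparison to −0.5 genes.

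Of 40 histone genes with a peak in both Ythdc1 controls, 5 (12.5%) had none in either cKO library, against 6.97% of all such protein-coding genes: Hist1h2ac for H2A, Hist1h2bk for H2B, and Hist1h3f, Hist1h3h and Hist1h3i for H3. Another 28 (70.0%) had a peak in both cKO libraries, against 88.3% of such protein-coding genes. None of the 17 histone genes without a control peak gained one in both cKO libraries, against 3.88% of such protein-coding genes. When any 1 of the 4 libraries was left out, which also loosens the rule, 8 or 9 genes counted as lost, and among the 33 genes that share less than 50% of their words 2 did. The share of all protein-coding genes lost under these changed rules was not computed, so these counts have no general rate beside them. Hist1h2ac had folds of 3.62 and 4.12 in the Ythdc1 controls and no peak in the other 8 libraries. Hist1h3f had folds of 3.79 and 2.35, Hist1h3h 1.80 and 2.57, and Hist1h3i 1.59 and 1.62, again in the Ythdc1 controls and nowhere else. The Hist1h3i peaks were weak, with a −log10 q of 4.07 and 3.14, and neither remained at a −log10 q of at least 5 or among the 40000 strongest peaks of each list, a setting that kept 1 of the 2 Hist1h3h peaks. Hist1h2bk was weak everywhere, at 2.21 and 2.14 in the Ythdc1 controls and 1.67 to 2.28 in 4 of the 6 libraries of the Mettl3 experiment.

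In the 14 genes with a peak everywhere, the median pile-up was 301.5 and 304.5 reads in cKO and 412.5 and 393 in the Ythdc1 control. The difference was −99.75 reads, with no overlap (exact permutation p = 0.333, the smallest possible). The median background was 69.2 and 78.7 reads in cKO and 98.6 and 91.5 in the control, a difference of −21.1 reads with the same p. In the 6 of them that share fewer words the differences were −125.5 reads of pile-up and −64.0 reads of background (exact permutation p = 0.333 each). Both quantities were lower in cKO. The median within-list percentile of all histone summits was 10.1 and 15.5 in cKO and 9.74 and 8.85 in the control, a difference of 3.48 (exact permutation p = 0.333). It was −3.88 over the 33 genes that share fewer words and 0.812 without cKO replicate 2. Over the 14 genes with a peak everywhere it was 25.9 and 15.5 in cKO and 18.2 and 13.6 in the control, with ranges that overlapped.

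**Figure D5:**
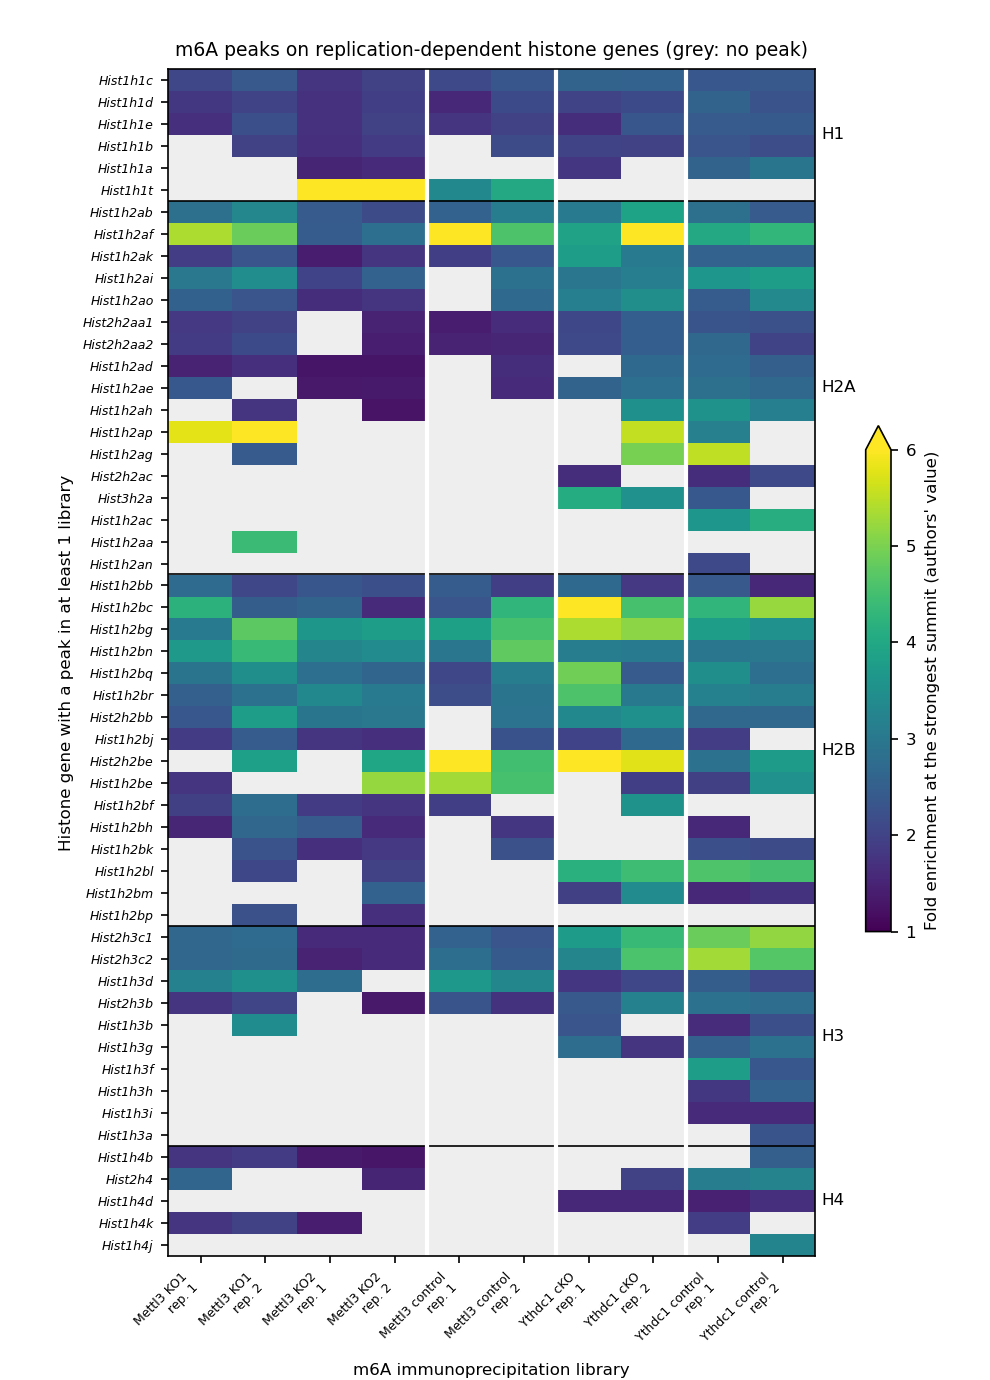
The authors' fold enrichment at the strongest summit (colour, from 1 to 6 and above) for each of the 54 histone genes with a peak (rows, by type) in the 10 libraries (columns, knockout left of its control); grey means no peak. The H1 rows Hist1h1c, Hist1h1d and Hist1h1e are filled and dark, and the H3 rows Hist1h3f, Hist1h3h and Hist1h3i are filled in the Ythdc1 controls alone.

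The linker histone genes, whose proteins bind DNA between nucleosomes, all had peaks, and Hist1h1c led them (ENSMUSG00000036181.2, chr13:23738808-23740367, plus strand). Its folds were 2.06 and 2.40 in KO1 and 1.76 and 1.96 in KO2, against 2.11 and 2.34 in the Mettl3 control. They were 2.59 and 2.58 in cKO and 2.35 and 2.39 in the Ythdc1 control. The 2.59 of cKO replicate 1 came from a summit in an untranslated region, and the summit in the coding exon there had 2.05. At the coding summit KO2 lay below both Mettl3 controls, while KO1 and cKO overlapped their controls. Hist1h1t, which encodes a linker histone known from the male germ line, had a different pattern, with folds of 6.64 and 10.5 in KO2 and 3.34 and 4.02 in the Mettl3 control, and no peak in KO1, cKO or the Ythdc1 control. Its pile-up was 189 and 166 reads in KO2, against 57 and 76 in the control. This gene was chosen for description after its values were seen. The 2 other germ-line histone genes, Hist1h2aa and Hist1h2ba, had a peak in 1 and in 0 libraries.

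H2A pairs with H2B in the nucleosome, and Hist1h2af led the H2A genes (ENSMUSG00000061991.2, chr13:23533906-23534304, plus strand). Its folds were 5.38 and 4.85 in KO1 and 2.46 and 2.82 in KO2, against 6.91 and 4.59 in the Mettl3 control. They were 3.88 and 9.41 in cKO and 4.02 and 4.32 in the Ythdc1 control. The KO2 values were the lowest of the 10, and the cKO values fell on both sides of their controls. The summit lay at coding base 305 in cKO replicate 1 and 256 in cKO replicate 2, against 305 and 302 in the Ythdc1 control. The 9.41 of cKO replicate 2 is thus from a different stretch of the gene. The background at the Hist1h2af summit was 197 and 171 reads in KO2 and 41.1 and 61.2 in the Mettl3 control. Per library, H2A genes with a peak numbered 10 and 12 in KO1 and 7 and 10 in KO2, against 5 and 9 in the Mettl3 control. They numbered 10 and 13 in cKO, against 16 and 12 in the Ythdc1 control.

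Among the H2B genes Hist1h2bg (ENSMUSG00000058385.8, chr13:23571396-23572013, plus strand) led, with folds of 3.03 and 4.74 in KO1 and 3.65 and 3.78 in KO2, against 3.85 and 4.55 in the Mettl3 control. In cKO it had 5.38 and 5.14, both above the 3.78 and 3.53 of the Ythdc1 control. Its summits stayed between coding bases 81 and 99 in all 10 libraries. Hist1h2bc had folds of 4.22 and 2.47 in KO1 and 2.60 and 1.60 in KO2, against 2.32 and 4.29 in the Mettl3 control, with 6.67 and 4.55 in cKO and 4.30 and 5.24 in the Ythdc1 control. The 2.60 of KO2 replicate 1 came from a summit of 58 reads in an untranslated region, and the coding summit there had 1.81. Of the coding summits, both KO2 values lay below both Mettl3 controls, while KO1 and cKO overlapped their controls. These summits were not at 1 place, since they lay between coding bases 99 and 260 over the libraries. They were at bases 177 and 260 in KO2 and at 253 and 100 in the Mettl3 control. The folds of the groups are thus from different stretches of the gene. Hist1h2bn had 3.69 and 4.36 in KO1 and 3.27 and 3.41 in KO2, against 2.97 and 4.78 in the Mettl3 control. Its cKO values, 3.12 and 3.09, lay just above the 2.96 and 3.01 of the Ythdc1 control.

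H3 and H4 form the tetramer at the centre of the nucleosome. Hist2h3c1 (ENSMUSG00000093769.4, chr3:96246685-96248509, plus strand) had folds of 2.65 and 2.75 in KO1 and 1.60 and 1.59 in KO2, against 2.57 and 2.32 in the Mettl3 control. It had 3.76 and 4.39 in cKO, both below the 4.85 and 5.18 of the Ythdc1 control. Its neighbour Hist2h3c2, with the same summit sequence, followed with 1.49 and 1.62 in KO2, against 2.81 and 2.41 in the Mettl3 control. H3 genes with a peak numbered 6 and 5 in cKO, against 9 and 10 in the Ythdc1 control, and 3 to 5 in the libraries of the Mettl3 experiment.

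H4 was the type with the fewest peaks. H4 genes with a peak numbered 3 and 2 in KO1 and 2 and 2 in KO2, against 0 and 0 in the Mettl3 control, and 1 and 2 in cKO, against 3 and 4 in the Ythdc1 control. Hist1h4b, the gene with a peak in all 4 Mettl3 knockout libraries and in neither Mettl3 control, had folds of 1.74 and 1.90 in KO1. In KO2 they were 1.37 and 1.30. Its only other peak, in Ythdc1 control replicate 2, was the strongest, at 2.52-fold. With a −log10 q of at least 5 the gene kept a peak in 3 of its 5 libraries. Hist2h4, which also had a peak in 5 libraries and stood higher in their lists, had 2.63 in KO1 replicate 1, 1.53 in KO2 replicate 2 and 1.98 in cKO replicate 2, with 3.11 and 3.23 in the Ythdc1 control, where the 3.11 was an untranslated region's summit and the coding summit had 2.88.

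Outside the Hist1 cluster, 10 genes had a peak. The paired H2A copies Hist2h2aa1 and Hist2h2aa2 had one in 9 libraries each, with folds of 1.405 to 2.66. Neither had one in KO2 replicate 1. Hist2h2bb, an H2B gene, had folds of 2.36 and 3.80 in KO1 and 2.95 and 3.01 in KO2, against 2.91 in Mettl3 control replicate 2, with 3.34 and 3.505 in cKO, above the 2.67 and 2.69 of the Ythdc1 control. Hist2h3b, an H3 gene, had 1.76 and 2.04 in KO1, 1.34 in KO2 replicate 2, and 2.30 and 1.74 in the Mettl3 control, with 2.40 and 3.19 in cKO and 2.88 and 2.79 in the Ythdc1 control. Its groups overlapped except for KO2, whose 1 value was the lowest. Hist2h2be, whose folds were 3.83 in KO1 replicate 2, 3.96 in KO2 replicate 2 and 6.10 and 4.49 in the Mettl3 control, had 6.33 and 5.77 in cKO, above the 2.88 and 3.75 of the Ythdc1 control. Hist3h2a had 4.09 and 3.52 in cKO and 2.37 in Ythdc1 control replicate 1, and no peak in the Mettl3 experiment. Hist2h2ac had 1.66 in cKO replicate 1 and 1.66 and 2.097 in the Ythdc1 control.

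Genes that act on histone RNA had peaks that stood higher in their lists. Of 20 histone mRNA processing and transcription factor genes, all had a peak in some library and 13 in all 10, and the median within-list percentile of their strongest peak was 75.2. They held 721 summits over the 10 libraries, and the strongest of several stands higher by choice. Tut4 and Tut7, which add uridines to RNA ends, Casp8ap2, a histone locus body protein, and Npat, the transcriptional coactivator of histone genes, stood highest. Npat had folds of 11.7 and 10.1 in KO1 and 9.61 and 9.14 in KO2, against 14.02 and 14.7 in the Mettl3 control, with 13.9 and 14.1 in cKO and 9.40 and 13.97 in the Ythdc1 control. No gene of this list lost its peaks in the Mettl3 knockouts, and Lsm11, of the U7 complex, and Ncbp2, of the cap-binding complex, lost theirs in cKO (2 of 19). Replication-independent histone variant genes were measured for 12 members, 9 with a peak and 5 in all libraries, none lost in either comparison; H2afx had folds of 4.06 to 9.21. Of 21 S phase genes all had a peak and 18 had one in every library, with Cdk2 lost in the Mettl3 knockouts and Mcm4 in cKO. Of all protein-coding genes with a peak in both controls, 2.74% were lost in the Mettl3 knockouts and 6.97% in cKO. The lists are small, and their losses were not tested against those shares. The median background at summits was 34.2 reads for the processing genes, 48.9 for the variants and 40.3 for the S phase genes.

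Of 10 embryonic stem cell marker genes, 9 or 10 had a peak in each library, where 42.6% to 46.6% of all protein-coding genes had one. Utf1 was the one without a peak in the Mettl3 knockouts. Of 8 fibroblast or feeder markers, 2 had a peak in each knockout library, against 6 and 6 in the Mettl3 control, and 3 and 3 in cKO, against 2 and 2 in the Ythdc1 control. Col1a1, Col1a2, Col5a2 and Lox made the difference in the Mettl3 experiment, and Col3a1 and Thy1 had no peak anywhere. A peak count gives no level for a marker, and the part of this in the histone counts was not tested.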

How the data were processed

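Chromatin-associated RNA was depleted of ribosomal RNA, fragmented, pulled down with an m6A antibody kit and sequenced from stranded libraries, per the labels' protocols. The submitters' processing notes name mm10, CASAVA, Trimmomatic 0.38, HISAT2 2.1.0 and MACS2. Its version, command and use of the inputs are not stated in the sources used here. The authors deposited 1 list of 40980 to 46761 peaks per library, stranded and called per library by the values and names in the lists, with a score, the fold enrichment at the summit (a ratio) and −log10 of the p-value and q-value per peak. By the values, listed peaks had a −log10 q of at least 2.00 and a width of at least 150 bp.

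A peak belonged to a gene when its summit lay in the gene body on the same strand. Pile-up and background were solved from the fold and the Poisson p-value, which gave whole reads within 0.01 for 99.9982% of 437949 peaks. A gene was lost with a peak in both controls and no knockout library, kept with a peak in every library, and gained with one in every knockout library and neither control. Each value per library was compared by exact permutation tests (Python 3.11.15, numpy 2.4.6, pandas 2.3.3, scipy 1.17.1), and the scripts were tested on simulated data. Named genes were those lost or gained, the leader of each type, the 5 present everywhere with the highest mean percentile, and those outside Hist1; others are said to be chosen afterwards or given by counts. The genes and lists were chosen with earlier results of these data known. Alternatives were peak thresholds, overlap rules, leaving out libraries or sequence-sharing genes, motif windows and a replicate block. Replicate numbers are not said to mark a shared culture or day. Correlations of replicate deviations were −0.01 to 0.03 over 7469 genes, which does not show whether libraries of 1 number shared a culture or day.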

Additional observations from a re-analysis of the deposited data

Results flagged for a closer look

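The median within-list percentile of fold at histone summits stood above the controls in one Mettl3 knockout line and below them in the other. It was 6.74 and 7.38 in Mettl3 KO1, above both controls, and 1.11 and 1.15 in KO2, below both controls, where the Mettl3 control had 4.41 and 4.63. The difference between the 2 knockouts was not tested, and the medians are over different genes in each library. Over the 14 genes with a peak in all libraries the values were 11.6 and 12.1 in KO1 and 5.88 and 2.68 in KO2, against 4.41 and 8.60 in the control, so KO2 overlapped its control. Beside it, the median background at histone summits was 95.3 and 90.8 reads in KO1 and 210 and 189 reads in KO2, against 101.1 and 99.9 reads in the control. The part of the background in the percentiles was not tested. With 2 libraries per group, no group was large enough to look for single libraries that stand apart.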

How the results depend on the processing

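Over all alternatives 122 values kept their direction or, for counts, stayed within 1.5 times, 31 moved and 5 changed direction; no p can pass 0.05 in a design of this size. With peaks of at least 3-fold, the difference in histone genes with a peak was −0.5 for Mettl3 and 2.5 for Ythdc1, the Mettl3 counts were 1 kept and 0 gained, and the Ythdc1 counts were 2 lost, 7 kept and 4 gained. Without the 34 genes that share at least 50% of their words, the differences in gene number were 1.25 (Mettl3) and −4.5 (Ythdc1), Mettl3 had 6 kept and 0 gained, Ythdc1 had 2 lost and 12 kept, and the percentile differences were −3.85 and −3.88. Fewer genes enter these counts by construction. Gained genes in the Mettl3 knockouts were 0 with −log10 q of at least 5 and 2 among the 40000 strongest peaks of each list, a setting chosen after seeing the data. Leaving out 1 library at a time gave differences in gene number of 3.5 to 11.5 (Mettl3) and −12 to −8 (Ythdc1). Percentile differences were −1.52 to 0.569 and 0.812 to 6.16, positive for Mettl3 only without a KO2 library (0.569 or 0.558). Mettl3 counts were 0 lost, 14 to 20 kept and 1 to 7 gained, and Ythdc1 counts 8 to 9 lost, 28 to 32 kept and 0 to 2 gained. For the counts under all these alternatives, shares over all protein-coding genes were not computed. The replicate block, with numbers not said to pair the libraries, left the differences at 7.5 and −10 genes (exact permutation p = 0.111 and 0.5) and −0.42 and 3.48 percentile points (p = 0.889 and 0.5). Summit, 1 bp and 50% overlap rules gave the same 353 peaks. The GGAC share was 35.2% within 100 nt, chosen after seeing the data. The lists carry no read totals, so a weak peak may be missed in a shallower library.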

Other observations

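Summits also lay on the strand opposite to the histone genes, 83 in all, within 20 of the 67 gene bodies. The share of all protein-coding genes with an antisense summit was not computed, so this count has no general rate beside it. Hist4h4, the gene of the Hist4 cluster, had no sense peak in any library but an antisense summit in all 10, with a fold of 11.3 and 8.52 in Mettl3 KO1 and 11.1 and 7.60 in KO2, against 9.43 and 8.25 in the Mettl3 control. It had 6.13 and 6.41 in Ythdc1 cKO and 6.29 and 7.13 in the Ythdc1 control. Hist1h1c had antisense summits in all 10 libraries too, at 1.90-fold to 6.83-fold. The annotation holds an antisense gene at Hist2h2aa1 (Gm20633) and at Hist2h2aa2 (Gm20632), with 6 summits each, and none on that strand at the other 18 genes. Antisense summits on Hist1h2bc were found in both KO1 libraries and both Mettl3 controls, at 4.15-fold to 4.81-fold, and in no other library.

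Within 1000 bp past the 3′ end, 4 same-strand summits were found, on Hist2h2aa1 (1.97-fold and 2.26-fold) and Hist2h2aa2 (1.94-fold and 2.58-fold), all in the 2 Mettl3 KO1 libraries. These places were chosen after their values were seen. Of the 50-base words of the Hist2h2aa1 and Hist2h2aa2 transcripts, 100% occurred in another gene. Sharing was not computed for the bases past their ends, so which copy these summits belong to is uncertain. The share of all protein-coding genes with such downstream summits was not computed.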
